A study of Mus musculus with 2 samples.

Results

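The mitochondrial ribosomal protein genes were compared between 2 libraries of primary microglia, which are macrophages of the brain and spinal cord. The genes were chosen by symbol, as Mrpl or Mrps followed by a number and at most 1 letter, which took 76 of the 26607 rows of the table. The pattern uses symbols alone, although the set was proposed with earlier results of these data known, and none of the 76 symbols stood on more than 1 row. Another 3 rows, with the lower-case symbols mrpl9, mrpl11 and mrpl24, were not taken by that pattern and are given apart. The first library came from cells transfected with a control vector, the other from cells given a Per2-overexpression vector, Per2 being a clock protein that represses transcription. The labels give neither the promoter of the vector, the age or strain of the animals, the time after transfection nor a number of cultures. They name the organism as mouse, while the genome build and the gene identifiers are of rat. Each group held 1 library, so no value has a replicate, no test between the groups could be made, and every difference below describes these libraries only.

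Mitochondria carry their own ribosome, which translates the few messenger RNAs of the mitochondrial genome, all of them for subunits of the respiratory chain and the ATP synthase. Its ribosomal RNAs are made in the organelle, while all of its proteins are encoded in the nucleus, made in the cytosol and imported. Some of these proteins belong to families shared with bacterial ribosomes, and others are found in mitochondria only. The small subunit decodes the messenger and the large subunit joins the amino acids and feeds the product to the inner membrane. In microglia, as in other macrophages, the respiratory chain this ribosome serves is known to change in activity between resting and inflammatory states.

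Values are FPKM, fragments per kilobase of transcript relative to all mapped fragments, as the authors deposited them, and are given with the control-vector library first. The log2 ratio is that of the Per2-vector over the control-vector library after adding 1 FPKM to each, which understates the difference of low genes. Per2 itself went against the labels, with 6.90 against 0.927 FPKM, so directions refer to the libraries as labelled. Rows at or above 1 FPKM numbered 12619 (control vector) and 11908 (Per2 vector), and 12369 rows had a mean of at least 1 FPKM and were compared. Depth is unknown, because no common step of 1 read was found among low values. Of 10 microglia markers, 8 were measured, with a summed level of 1256 against 879 FPKM. Cx3cr1 was listed at 0 in both libraries and P2ry12 had 0.650 against 0.0802 FPKM, below the filter. All 8 astrocyte markers were measured, summing to 427 against 192 FPKM, as were 7 of 8 oligodendrocyte-lineage markers (72.5 against 57.1), 6 of 7 fibroblast and pericyte markers (588 against 419), 3 of 6 neuron markers (38.7 against 26.6) and 2 of 5 endothelial markers (5.35 against 3.95), with Rbfox3 and Cldn5 at 0. The cultures thus held RNA of other cell types. By these sums it was lower in the Per2-vector library, as was that of the microglia markers. In the microglia, oligodendrocyte-lineage, neuron, and fibroblast and pericyte lists, 1 measured marker each went the other way (Tmem119, Pdgfra, Tubb3 and Pdgfrb). Most genes compared were lower too, with 35.9% above a log2 ratio of 0 and a median of -0.18. The medians of the 6 lists, in the order of the sums above, were -0.36, -0.96, -0.91, -0.47, -0.74 and -0.33. With the trend with transcript length removed, as described below, they were -0.51, -0.75, -0.73, -0.13, -0.39 and 0.08. The part of other cell types in the values below was not tested. In bulk RNA, fewer cells of a type and less RNA per cell cannot be told apart.

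Most mitochondrial ribosomal protein genes had modestly higher values in the Per2-vector library. Of the 76 genes, 75 passed the filter of a mean of 1 FPKM, and 65 of these (86.7%) had a log2 ratio above 0, against 35.9% of all genes compared. Their median log2 ratio was 0.39, and the middle of their distribution ran from 0.22 (lower quartile) to 0.55 (upper quartile). All genes compared had a median of -0.18, with quartiles of -0.50 and 0.17. The measured members all had a mean of at least 7.02 FPKM. Of the 7053 genes at or above that level, 43.6% lay above 0, with a median of -0.08. The differences were small: 0 members were at least 2-fold higher (2.19% of all genes) and 0 were at least 2-fold lower (5.93%). At 1.5-fold, 17 members were higher (8.29% of all genes) and 2 were lower (20.2%). Their summed level was 2745 against 3821 FPKM, a ratio of 1.39, while the sum of the whole table also differed, by a ratio of 1.15. As a share of all summed FPKM they took 4162 against 5026 of every 1000000 units.

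**Figure D1:**
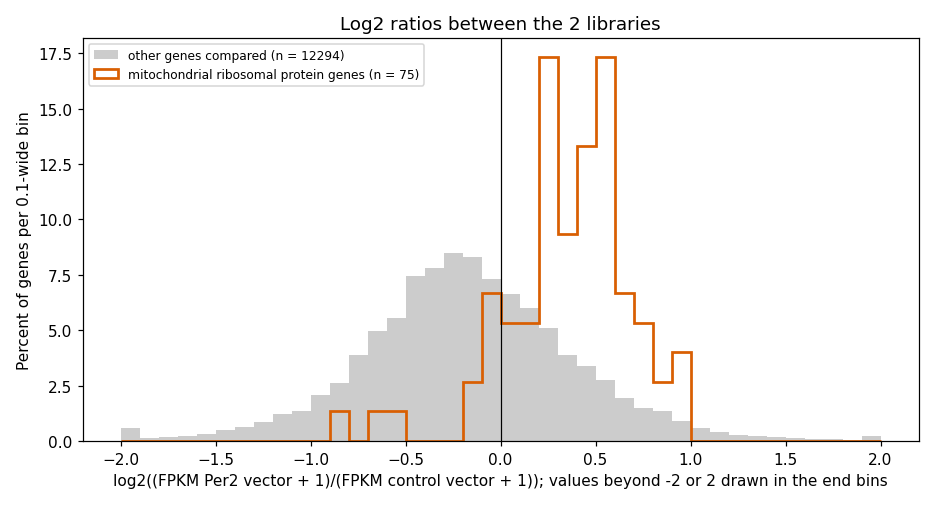
Percent of genes in each 0.1-wide bin of the log2 ratio of FPKM + 1 (Per2-vector over control-vector library), for the 75 mitochondrial ribosomal protein genes (line) and all other genes compared (grey bars). The line is centred to the right of 0, at a median of 0.39, and stays between -0.86 and 0.97, while the median of all genes compared is -0.18.

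The general level of the ratios depended on the scaling. With each library rescaled to the same total (TPM), 57 members lay above 0, against 24.4% of all genes, with a median of 0.21 beside -0.37, and 6 were at least 1.5-fold higher (5.13% of all genes) and 1 at least 2-fold lower (11.3%). With the ratios centred on the median gene above 1 FPKM in both libraries, 72 members lay above 0, against 48.2% of all genes, with a median of 0.56 beside -0.02. At 1.5-fold, 31 were then higher (13.3% of all genes) and 1 lower (12.5%), and 4 were at least 2-fold higher (3.83%). The distance between the members' median and that of all genes compared was 0.58 under each of these scalings. This agreement was fixed in advance, since each scaling shifts all genes alike, apart from a small effect of the added 1. Of the 75 members, 57 were above 0 and 3 were below 0 under all of them, and 15 turned sign between them. Those 15 were Mrpl2, Mrpl10, Mrpl38, Mrpl39, Mrpl40, Mrpl43, Mrpl44, Mrpl45, Mrpl51, Mrpl53, Mrps2, Mrps18b, Mrps22, Mrps27 and Mrps31, so the signs given for them below hold for the deposited values only.

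The small subunit had 26 measured members, 23 of them above 0, with a median log2 ratio of 0.31. Of its 16 members of bacterial families, 14 lay above 0 and the median was 0.36. The highest were Mrps18c, of the bS18 family, with 16.1 against 32.2 FPKM and a log2 ratio of 0.96, and Mrps21, of the bS21 family, with 47.5 against 92.6 FPKM and 0.95. Mrps21l, a row whose symbol names it as like Mrps21, was the 1 member under the filter, with 0.558 against 0.359 FPKM. How reads of the near copies were shared out is not given in the sources used here, so the values of Mrps21 and Mrps21l are uncertain. Mrps24, the uS3 protein of the small subunit, had 53.5 against 85.1 FPKM. Mrps28, of the bS1 family, had 25.4 against 38.8 FPKM. These 4 were the only small-subunit members of bacterial families at least 1.5-fold higher.

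Mrps12, whose bacterial counterpart S12 lies at the decoding centre, had 48.5 against 70.1 FPKM. Mrps14, of the uS14 family, had 37.02 against 54.6 FPKM. Mrps16, of the bS16 family, had 49.6 against 66.7 FPKM. These 3 had log2 ratios of 0.52, 0.55 and 0.42, all above the subunit's median. Mrps15 had 18.98 against 25.5 FPKM and Mrps10 had 11.3 against 14.3 FPKM. The most abundant of the group in the control-vector library were Mrps17 (uS17), with 75.1 against 89.8 FPKM, and Mrps6 (bS6), with 70.8 against 87.4 FPKM. Both were close in the libraries, with log2 ratios of 0.25 and 0.30. Mrps11 (uS11), with 30.9 against 37.004 FPKM, and 2 proteins of the head of the subunit, Mrps7 (uS7), with 53.1 against 61.9 FPKM, and Mrps9 (uS9), with 19.6 against 22.996 FPKM, differed by a similar amount, with log2 ratios between 0.22 and 0.25. Mrps2 (uS2) had 7.37 against 6.67 FPKM, a log2 ratio of -0.13. Mrps5 (uS5), with 16.5 against 10.9 FPKM, stood apart as the lowest of the small subunit, at -0.56, and was below 0 under every scaling run.

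Of the 10 small-subunit members specific to mitochondria, 9 lay above 0, with a median of 0.29. Mrps34 had 46.5 against 76.5 FPKM and a log2 ratio of 0.70. Mrps35 had 9.41 against 15.1 FPKM and 0.63. These were the 2 members of the group at least 1.5-fold higher, although their levels differed several-fold. Mrps25 had 45.5 against 65.6 FPKM, Mrps33 had 42.4 against 59.5 FPKM and Mrps23 had 38.8 against 48.6 FPKM. Mrps26, with 27.7 against 33.4 FPKM, was nearer to parity, at 0.26. Mrps18b, a second relative of bacterial S18, had 35.5 against 40.8 FPKM. Mrps27, which carries pentatricopeptide repeats, a fold that binds RNA in other proteins, had 11.4 against 13.1 FPKM. Mrps22 had 21.2 against 21.4 FPKM and Mrps31 had 10.1 against 9.05 FPKM, and these last 4 lay between -0.14 and 0.19. Mrps36 matched the symbol pattern, but its product is now assigned to the 2-oxoglutarate dehydrogenase complex of the citric acid cycle and not to the ribosome. It had 15.4 against 20.3 FPKM, a log2 ratio of 0.38.

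The large subunit had 48 measured members, 41 of them above 0, with a median log2 ratio of 0.40. Its 27 members of bacterial families had 25 above 0 and the highest median of the 4 groups, 0.49. Mrpl23 (uL23), Mrpl22 (uL22), Mrpl17 (bL17) and Mrpl47 (uL29) belong to families that line or ring the exit of the nascent protein in bacterial ribosomes. Mrpl23 led the group, with 71.8 against 134 FPKM and a log2 ratio of 0.89, and Mrpl22 had 36.8 against 61.5 FPKM, at 0.73. Mrpl17 was the most abundant member in the control-vector library, with 165 against 239.8 FPKM. Mrpl47 was the lowest in the control-vector library, with 7.35 against 9.97 FPKM. Of the 7 measured members assigned to the exit, all lay above 0 and their median was 0.39, but 3 of them, Mrpl39, Mrpl44 and Mrpl45, were below 0 after rescaling to TPM.

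Mrpl55 (bL31) had 38.6 against 68.4 FPKM and Mrpl30 (uL30) had 22.5 against 37.1 FPKM. Mrpl33 (bL33), with 146 against 239.6 FPKM, stood level with Mrpl17 in the Per2-vector library. The log2 ratios of these 3 lay between 0.70 and 0.81. In the stalk, which recruits translation factors, Mrpl12, the relative of bacterial L7/L12, had 38.9 against 61.5 FPKM, while Mrpl10, the protein at the stalk's base, had 26.97 against 26.8 FPKM. The neighbours of 1 structural element thus differed, with log2 ratios of 0.65 and -0.01. Mrpl1, the relative of the L1 protein that lines the exit path of spent tRNA, had 9.45 against 4.76 FPKM. At -0.86 it was the lowest of all members, and it was below 0 under every scaling run.

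Mrpl28, Mrpl20, Mrpl14, Mrpl34, Mrpl27, Mrpl35 and Mrpl36, all of bacterial families, differed alike, with log2 ratios from 0.47 to 0.55. In FPKM they stood at Mrpl28 (50.5 against 74.2), Mrpl20 (72.1 against 105), Mrpl14 (31.4 against 45.3), Mrpl34 (48.8 against 69.97), Mrpl27 (67.2 against 95.1), Mrpl35 (18.9 against 26.9) and Mrpl36 (38.04 against 53.2). The bacterial relative of Mrpl27 reaches the peptidyl transferase centre, where peptide bonds are made. Mrpl18 (uL18), a protein of the central protuberance that faces the small subunit, had 40.9 against 61.04 FPKM. Mrpl32, which is matured in the matrix by the m-AAA protease before it enters the ribosome, had 28.5 against 38.3 FPKM. Mrpl15, Mrpl13 and Mrpl19 were a little higher in the Per2-vector library, at Mrpl15 (36.3 against 48.5), Mrpl13 (59.7 against 76.1) and Mrpl19 (16.9 against 21.5) FPKM. Mrpl2, Mrpl3, Mrpl4 and Mrpl16 are the relatives of the bacterial proteins L2, L3, L4 and L16, which lie around the catalytic core and the tunnel. Mrpl2 had 18.1 against 19.7 FPKM, Mrpl3 had 42.3 against 51.3 FPKM, Mrpl4 had 33.4 against 40.6 FPKM and Mrpl16 had 14.8 against 17.7 FPKM. Mrpl21, with 21.2 against 25.3 FPKM, lay in the same range, and these 5 had log2 ratios from 0.12 to 0.27.

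The 3 rows with lower-case symbols belong to the same families. The row mrpl11, of the stalk, had 34.6 against 47.8 FPKM, mrpl24, of the exit, had 19.8 against 28.1 FPKM, and mrpl9 had 18.4 against 19.4 FPKM. All 3 had log2 ratios above 0 as deposited, the lowest being 0.07 for mrpl9, and the median of the 78 genes with them was 0.40.

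Of the 21 large-subunit members specific to mitochondria, 16 lay above 0 and the median was 0.28. Mrpl54 had 79.98 against 157 FPKM, and its log2 ratio of 0.97 was the highest of all members. Mrpl52 had 39.5 against 68.8 FPKM and Mrpl41 had 57.5 against 87.3 FPKM. Mrpl57 had 36.7 against 56.3 FPKM. Mrpl58, a peptidyl-tRNA hydrolase that frees stalled ribosomes and is also built into the large subunit, had 24.6 against 37.8 FPKM. These 5 were the members of the group at least 1.5-fold higher. Mrpl50, with 9.61 against 14.1 FPKM, and Mrpl37, with 32.5 against 43.5 FPKM, followed at 0.51 and 0.41.

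Among the mitochondria-specific proteins of the central protuberance, Mrpl46 had 12.4 against 16.7 FPKM and Mrpl48 had 19.5 against 23.5 FPKM. Mrpl38 had 17.1 against 16.8 FPKM and Mrpl40 had 8.57 against 8.88 FPKM. The 5 members of that element, with Mrpl18, ran from -0.02 to 0.57, so they did not differ alike. Mrpl45, which ties the ribosome to the inner membrane, had 28.9 against 30.7 FPKM. Mrpl44, which has a ribonuclease III fold, had 18.04 against 19.5 FPKM, and Mrpl39 had 15.4 against 15.7 FPKM. All 3 lay between 0.02 and 0.11, close to parity. Mrps18a and Mrps30 carry small-subunit symbols but sit in the large subunit, and had 44.2 against 55.2 FPKM and 19.02 against 23.4 FPKM. Mrpl42 had 43.8 against 53.2 FPKM, Mrpl43 had 42.4 against 41.4 FPKM and Mrpl51 had 10.04 against 9.87 FPKM. Mrpl53, one of the more abundant members, had 79.4 against 77.4 FPKM, a log2 ratio of -0.04. Mrpl49 had 18.5 against 11.1 FPKM, and at -0.68 it was, with Mrpl1, one of the 2 members at least 1.5-fold lower.

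**Figure D2:**
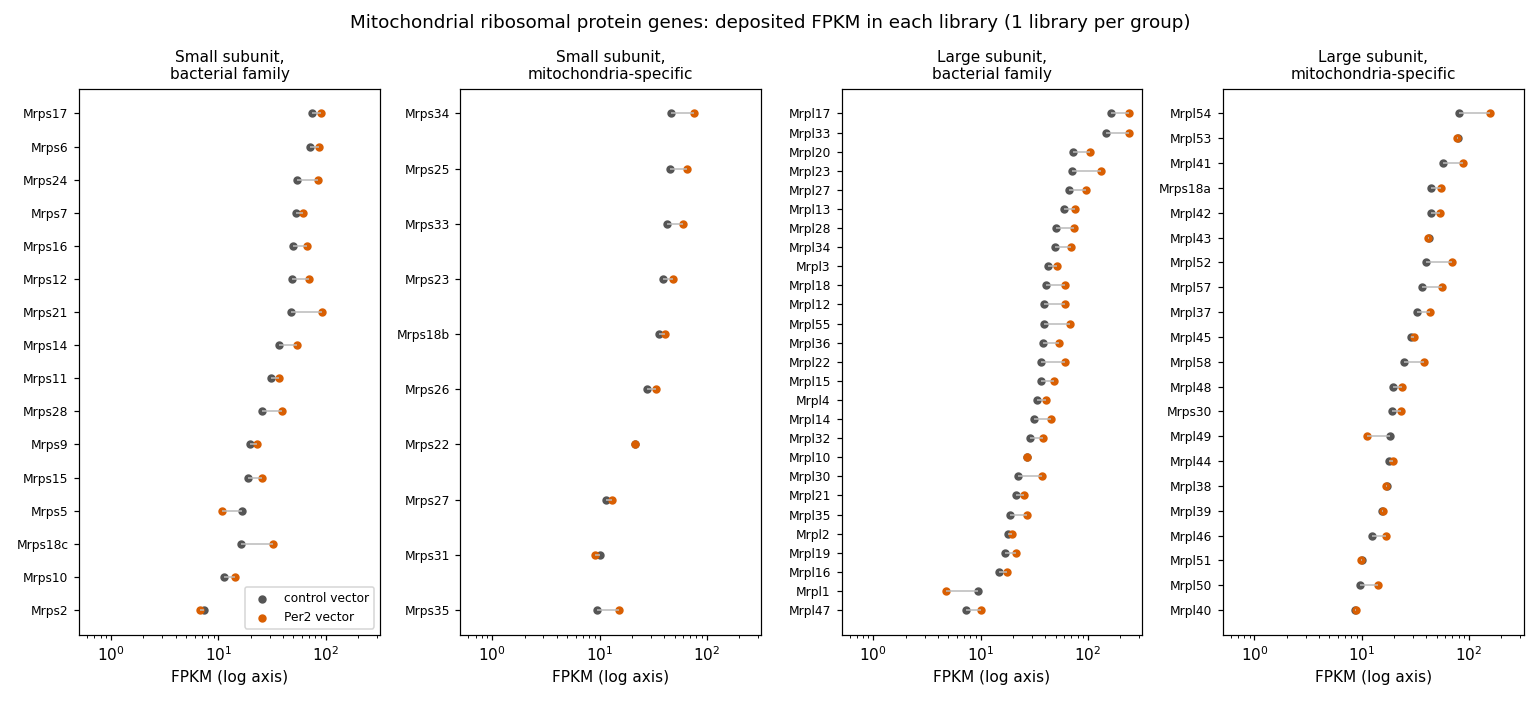
Deposited FPKM of the mitochondrial ribosomal proteins past the filter, in the control-vector library (grey) and the Per2-vector library (orange), on a log axis, by subunit and family, ordered by the control-vector value (Mrps36 left out). The orange point lies to the right for most genes, and clearly to the left for Mrps5, Mrpl1 and Mrpl49.

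The order of the genes by level was nearly the same in both libraries. The 75 members had a median of 32.5 FPKM (lowest 7.35, highest 165) in the control-vector library and of 40.8 FPKM (lowest 4.76, highest 239.8) in the Per2-vector library. All genes compared had medians of 9.95 and 8.21 FPKM. Across members, Spearman's rho between the libraries was 0.97 (75 genes, a description, since the points share their libraries). The spread over members, as the SD of log2 FPKM, was 0.99 against 1.19. The log2 ratio was larger in the more abundant members (rho 0.56 with the mean level, against 0.28 over all genes compared, and 0.15 over members with the transcript-length trend removed). Members of bacterial families had a median of 0.42 (43 genes) and mitochondria-specific members of 0.28 (31 genes). With the ratios adjusted for transcript length as described next, these medians were 0.09 and 0.16, so their order turned, and with coding length they were 0.24 and 0.17.

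The ratio between the libraries varied with transcript length, and mitochondrial ribosomal protein genes have short transcripts. As a stand-in for the rat transcripts, lengths were taken from mouse, as the longest coding transcript under each symbol, and were at hand for all 75 members and for 10139 of the genes compared. The median transcript length was 1288 nt for members and 3025 nt for all genes, and the medians of the coding part were 573 and 1335 nt. Spearman's rho between log2 ratio and transcript length was -0.50 over all these genes and -0.38 over members. With coding length it was -0.49 over both. These are descriptions across genes of the same libraries.

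With the trend with transcript length removed from the ratios of all genes, the members' median was 0.16, beside -0.01 for all genes with a length, and 47 of 75 lay above 0, against 49.3% of all. At 1.5-fold, 18 were then higher (6.63% of all genes) and 2 lower (8.77%). With the trend with coding length removed instead, the median was 0.21, and 62 of 75 lay above 0, against 50% of all, with 7 at least 1.5-fold higher (6.41% of all genes). Both steps also recentre the ratios, so the distance between members and all genes is the value to read: it was 0.58 as deposited, 0.16 after the transcript-length step and 0.21 after the coding-length step. The genes concerned were not the same: of the 17 members at least 1.5-fold higher as deposited, 4 were so with the transcript-length trend removed, and 15 were above 0. Of the 57 members above 0 under the 3 scalings, 14 were not above 0 with the transcript-length trend removed, namely Mrpl14, Mrpl16, Mrpl21, Mrpl27, Mrpl33, Mrpl34, Mrpl42, Mrpl52, Mrps6, Mrps10, Mrps11, Mrps15, Mrps18a and Mrps36. With the coding-length trend removed 4 were not, Mrpl42, Mrps6, Mrps17 and Mrps36, and 42 members were above 0 under all 5 settings. Mrpl42 stood at -0.33, Mrps36 at -0.20 and Mrps6 at -0.18 after the transcript-length step. Mrpl33 and Mrpl52, with some of the shortest mouse transcripts (478 and 463 nt), then stood at -0.07 and -0.01. Mrpl17, Mrps35 and Mrps25, whose longest mouse transcripts are 7300, 4162 and 6073 nt, had the highest adjusted values, at 0.99, 0.99 and 0.96. With coding length they stood at 0.33, 0.69 and 0.30, so the choice of length moved them. Mrpl1, Mrpl49 and Mrps5 stayed below 0, at -0.55, -0.70 and -0.17.

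The same can be read without a fit. The 19 members with transcripts of at most 884 nt had a median log2 ratio of 0.54, beside 0.56 for the 359 other genes of that range of length. The 37 members from 918 to 2572 nt had a median of 0.25, beside 0.02 for 3626 other genes. The 19 members from 2596 to 7300 nt had a median of 0.39, beside -0.34 for 5475 other genes, of which 19.2% lay above 0. By the longest mouse transcript, members with short transcripts thus stood level with other genes, and those with long ones above them. No such groups were formed by coding length, which can rank the members otherwise. Mrpl17 and Mrps25, among the longest here, have coding parts of only 528 and 513 nt. The length of the transcripts that these genes made in the cultures is not known from the table.

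**Figure D3:**
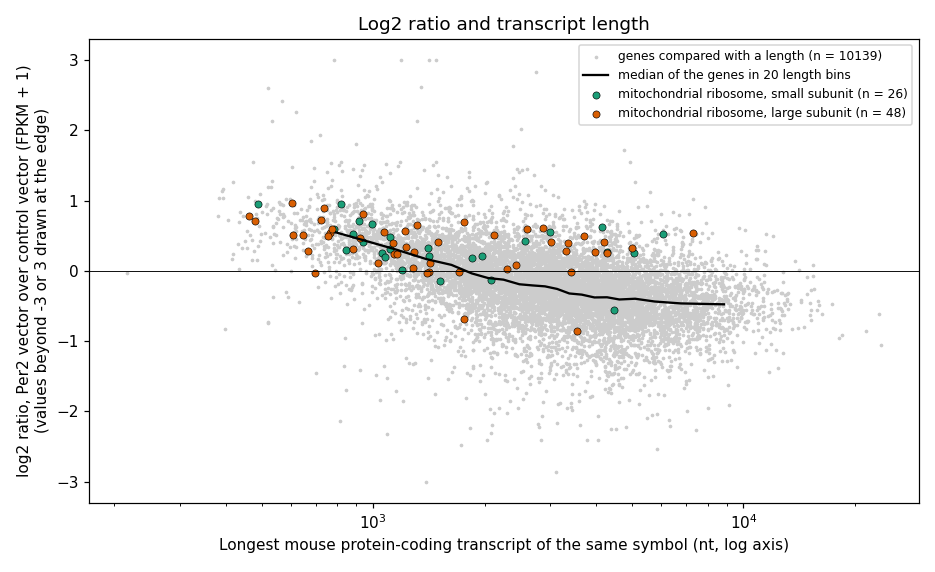
Log2 ratio of FPKM + 1 (Per2-vector over control-vector library) against the longest mouse protein-coding transcript of the same symbol (log axis), for 10139 genes (grey), the members of each ribosomal subunit (coloured), and the median of all genes in 20 bins of length (line). The line falls with length, short members lie along it, and most members with long transcripts lie above it.

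Other genes of mitochondrial gene expression had lower medians than the ribosomal protein genes in the deposited values, a difference with no test. Of the ribosomal proteins known by other symbols, Chchd1, of the small subunit, had 69.6 against 107 FPKM and Aurkaip1 had 86.7 against 98.9 FPKM. Dap3, a GTP-binding protein of the small subunit, had 24.99 against 26.1 FPKM, and Gadd45gip1, of the large subunit, had 48.7 against 55.5 FPKM. Ptcd3, a pentatricopeptide protein of the small subunit, had 26.7 against 7.30 FPKM, a log2 ratio of -1.74. It was the only one of these 5 genes at least 2-fold lower, and no member of the symbol pattern differed as much. The median of the 5 was 0.19, and -0.04 with the transcript-length trend removed.

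Factors that assemble the mitochondrial ribosome or modify its RNA had a median log2 ratio of 0.06. Of 24 measured genes 13 lay above 0, against 35.9% of all genes compared. Malsu1, which acts on the large subunit, had 21.5 against 32.4 FPKM, and Rpusd3, a pseudouridine synthase of its RNA, had 4.61 against 6.84 FPKM. Eral1, a chaperone of the small subunit's RNA, had 6.94 against 5.35 FPKM, and Trub2 had 11.2 against 8.91 FPKM. None (0) of the 24 was 1.5-fold higher (8.29% of all genes) or lower (20.2%). This is the same rule of size on 1 library a group, with no test. With the transcript-length and the coding-length trend removed, the median of the 24 was 0.03 and 0.21. The ribosomal protein genes then stood at 0.16 and 0.21, so the gap depended on the choice of length. Translation factors and messenger-binding proteins had a median of -0.17, with 5 of 14 above 0, close to the median of -0.18 and the 35.9% above 0 of all genes compared. Their median was 0.01 with the transcript-length and 0.13 with the coding-length trend removed. Slirp, a partner of Lrpprc on mitochondrial messengers, had 10.2 against 15.5 FPKM, and Mtfmt, which formylates the initiator tRNA, had 8.11 against 9.46 FPKM. Gfm1, an elongation factor, had 16.8 against 11.3 FPKM, and Mtrf1, of the release-factor family, had 5.42 against 3.23 FPKM.

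Enzymes that charge mitochondrial tRNA were mostly lower in the Per2-vector library. Of 19 measured genes, 3 lay above 0 and the median was -0.43, beside 35.9% and -0.18 for all genes compared. Sars2, for serine, had 2.46 against 3.78 FPKM, and Qrsl1, of the glutamine amidotransferase, had 2.15 against 2.73 FPKM. Lars2, for leucine, had 1.70 against 0.500 FPKM, and Vars2, for valine, had 1.95 against 0.742 FPKM. With a median mouse transcript of 3336 nt these genes are longer than the ribosomal protein genes, and their median was -0.09 with the transcript-length trend removed. Genes for maintenance and transcription of mitochondrial DNA had a median of -0.03 (9 genes, 3 above 0). The share of all genes compared above 0 was 35.9%. For the 8 of them with a length, the median was 0.10 with the transcript-length and 0.11 with the coding-length trend removed. Ssbp1, which binds single-stranded mitochondrial DNA, had 45.2 against 58.5 FPKM, and Polg2, of the DNA polymerase, had 3.77 against 4.10 FPKM. Polg, its catalytic subunit, had 8.52 against 5.57 FPKM, and Mterf1 had 6.08 against 3.75 FPKM.

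Nuclear transcription factors known to act on genes of the mitochondrial machinery were also measured. Of 7 past the filter, 1 lay above 0 and the median was -0.07, beside 35.9% and -0.18 for all genes compared. Myc had 11.7 against 12.3 FPKM and Nrf1 had 8.86 against 8.51 FPKM. Gabpa, the DNA-binding subunit of GABP, had 9.89 against 7.35 FPKM, and Yy1 had 21.9 against 13.5 FPKM, a log2 ratio of -0.67. With the transcript-length trend removed the median of the 7 was 0.21 and 6 lay above 0, so it was then not below that of the ribosomal protein genes (0.16). With the coding-length trend removed it was 0.13, below their 0.21, so the order depended on the choice of length. The coactivator genes Ppargc1a and Ppargc1b were under the filter in both libraries.

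The groups most like the mitochondrial ribosomal protein genes differed more in the deposited values. Of 81 measured genes for cytosolic ribosomal proteins, 77 lay above 0 (35.9% of all genes compared) and 13 were at least 2-fold higher (2.19%). Their median log2 ratio was 0.80. Of 78 measured nuclear genes for oxidative phosphorylation, 71 lay above 0 and 2 were at least 2-fold higher (2.19% of all genes). Their median log2 ratio was 0.65. The median of mitochondrial ribosomal protein genes was lower than these by 0.41 and 0.25 on the log2 scale. With the transcript-length trend removed the distance to the cytosolic genes was 0.19, and with the coding-length trend removed 0.33. For the oxidative phosphorylation genes the length check is void, since only 60 of the 78 had a mouse length under the same symbol, so the gap of 0.25 is given without regard to length. With 1 library per group the differences between the groups could not be tested. Values of cytosolic ribosomal protein genes are uncertain, since many have near-identical processed copies that could share their reads.

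**Figure D4:**
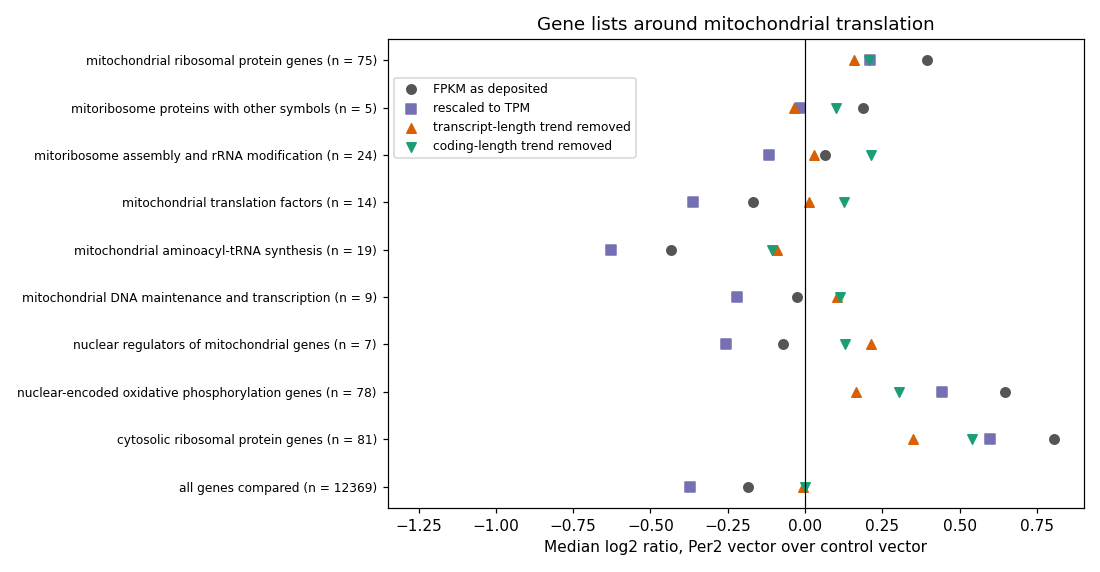
Median log2 ratio (Per2-vector over control-vector library) of the gene lists around mitochondrial translation, as deposited, rescaled to TPM, and with the trend with transcript or coding length removed. Mitochondrial ribosomal protein genes lie above 0 under all of these settings (0.39, 0.21, 0.16 and 0.21), below the cytosolic ribosomal protein genes in each, while the enzymes for tRNA charging lie below 0 in each. The length settings are void for oxidative phosphorylation, where 60 of 78 genes had a length.

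Features of the start sites are shown here because the choice by symbol did not use them. RefSeq promoter windows of the mouse assembly GRCm38.p6, from 250 bases before to 50 after each start, were matched by symbol to 66 of the 76 genes. They are sequences of the labelled species, not of the rat build of the table. Both strands were searched for the palindromic consensus of NRF1, for CCGGAAGT of ETS factors such as GABP (ACTTCCGG on the other strand) and AAGATGGC of YY1 (GCCATCTT on the other strand). None of these 3 contains another. The NRF1 consensus stood in 2 of the 66 (3.03%), against 2.37% of 8088 genes compared that had a window and 1.07% of all 27025. The ETS letters stood in 12 (18.2%), against 9.63% and 4.31%. The YY1 letters also stood in 12 (18.2%), against 5.53% and 3.19%. Of the 66, 24 (36.4%) held any of the 3, against 16.7% of the genes compared that had a window and 8.22% of all. So did 35.1% of 57 cytosolic ribosomal protein genes and 28% of 50 oxidative phosphorylation genes with a window. The ETS letters stood in 21.1% of the former and 8% of the latter, and the YY1 letters in 10.5% and 14%. A match is a description and not a binding site.

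In 8 of the 66 genes (12.1%) the YY1 letters lay after the start, each time in the direction of transcription, against 2.71% of the genes compared with the letters in that direction and place. These sites are shown because of that common placing, with 30 bases each, 5′ to 3′ along the gene and the matched letters in capitals.
Mrpl35, chr6:71823743-71823772, - strand: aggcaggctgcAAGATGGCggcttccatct
Mrpl37, chr4:107066822-107066851, - strand: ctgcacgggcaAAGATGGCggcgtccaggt
Mrpl42, chr10:95501904-95501933, - strand: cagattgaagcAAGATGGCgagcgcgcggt
Mrpl49, chr19:6057721-6057750, - strand: gttgaggcgccAAGATGGCagcagcggtgt
Mrps7, chr11:115604147-115604176, + strand: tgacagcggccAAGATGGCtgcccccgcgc
Mrps18a, chr17:46111004-46111033, + strand: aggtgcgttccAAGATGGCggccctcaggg
Mrps24, chr11:5707652-5707681, - strand: cgggtcgcgccggcccAAGATGGCgtggtc
Mrps27, chr13:99344789-99344818, + strand: tggtgcgctccAAGATGGCggctcccatgg
The matched letters hold ATG, the letters of a start codon, and whether translation begins there was not tested. The members with these sites did not share a ratio: Mrps24 stood at 0.66, Mrpl35 at 0.49 and Mrpl49 at -0.68. Over the whole window, the 12 members with YY1 letters had a median log2 ratio of 0.36 and the 54 without had 0.39. The 12 with ETS letters had a median of 0.27 and the 54 without had 0.40.

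Many of these genes begin head to head with a neighbour on the other strand. Of the 66, 23 (34.8%) had an opposite start within 500 bases upstream, against 18.3% of the genes compared that had a window. Mrpl46 and Mrps11, of the large and the small subunit, face each other across 41 bases, with log2 ratios of 0.40 and 0.25. Mrps12 faces Sars2, the mitochondrial seryl-tRNA synthetase, and both had higher values in the Per2-vector library (0.52 and 0.46). Mrpl43 faces Twnk, the helicase of mitochondrial DNA, which had 3.51 against 2.85 FPKM, at -0.23 beside -0.03. The other pairs shown hold the highest and the lowest log2 ratio among members with such a neighbour. Mrps18c (0.96) faces Helq, a DNA helicase, which had 1.31 against 0.643 FPKM and so fell below the filter. Mrpl49 (-0.68) faces Fau, which encodes a ubiquitin-like protein fused to a cytosolic ribosomal protein and had 106 against 104 FPKM. The bases between the starts are given 5′ to 3′ towards the mitochondrial ribosomal protein gene named first, on its strand, with matches to the ETS letters in capitals.
Mrpl46 to Mrps11, chr7:78783090-78783130, - strand: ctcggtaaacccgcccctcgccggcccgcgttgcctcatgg
Mrps12 to Sars2, chr7:28741822-28741967, - strand: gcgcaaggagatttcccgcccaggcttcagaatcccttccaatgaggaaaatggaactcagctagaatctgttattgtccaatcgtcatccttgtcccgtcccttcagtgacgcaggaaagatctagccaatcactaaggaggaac
Mrpl43 to Twnk, chr19:45006443-45006557, - strand: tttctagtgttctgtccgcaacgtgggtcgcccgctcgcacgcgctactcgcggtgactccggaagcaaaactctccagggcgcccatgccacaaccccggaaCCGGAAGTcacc
Mrps18c to Helq, chr5:100798601-100798758, + strand: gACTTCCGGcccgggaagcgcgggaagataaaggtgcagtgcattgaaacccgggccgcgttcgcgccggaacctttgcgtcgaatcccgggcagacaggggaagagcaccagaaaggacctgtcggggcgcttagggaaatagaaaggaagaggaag
Mrpl49 to Fau, chr19:6057756-6057946, - strand: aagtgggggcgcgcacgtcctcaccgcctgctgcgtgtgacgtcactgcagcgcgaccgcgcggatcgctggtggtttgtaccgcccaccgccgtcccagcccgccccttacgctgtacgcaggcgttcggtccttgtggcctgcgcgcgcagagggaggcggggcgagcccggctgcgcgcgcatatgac
Across all such pairs, 15 neighbours outside the family passed the filter, of which 4 lay above 0 and 11 below, beside 35.9% of all genes compared above 0, with a median log2 ratio of -0.26, while the members they face had a median of 0.39. The member had the higher ratio in 13 of the 15 pairs. Of all 75 members, 72 lay above the median of all genes compared, so this count says little about such pairs in particular. The neighbours had the longer transcripts, with a median of 2446 nt against 1757 nt in mouse. No strand-marking step is named in the labels, so reads from any overlap of such neighbours could not be told apart.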

How the data were processed

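The authors deposited 1 table of FPKM values, 1 per gene and library, from poly(A)-selected RNA. HISAT2, StringTie, DESeq2, edgeR and the rat build Rnor_6.0 are named in the submitters' processing notes, without versions. The sources used here do not state the order or parameters of these tools. Columns were matched to samples through the library names given in the labels. Log2 ratios used a pseudocount of 1 FPKM, over rows averaging 1 FPKM or more. With 1 library per group, counts at 2-fold and 1.5-fold stand in place of a test and no p-value is given. Depth is unknown: among 1286 genes above 0 and below 0.3 FPKM in both libraries, at most 6 shared a ratio to 3 decimals.

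Length trends were removed by lowess (span 0.3, statsmodels 0.14.6) on log2 mouse length (GENCODE M21). The step was tried on simulated data with a straight-line trend on the same mouse transcript lengths. That trial did not cover coding length. It could not show whether mouse lengths stand for those of the rat transcripts. Subunit, family and pathway lists came from general knowledge. Every member was to be named, and of each pathway list the 2 highest and 2 lowest measured genes. Members and lists were chosen with earlier results of these data known. The head-to-head pairs shown and the motifs were chosen after the values had been seen. Sequences are from RefSeq (GRCm38.p6).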

Additional observations from a re-analysis of the deposited data

How the results depend on the processing

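The members' median log2 ratio (0.39) stayed above 0 under each of 10 alternatives, of which the coding-length fit and the lower-case symbols were added after the data had been seen. Some of the 10 could hardly move it. No member shared a symbol, so summing rows left the members as they were. The lowest mean of a measured member was 7.02 FPKM, so the filter at 5 FPKM removed none. Dropping the filter added only Mrps21l. Values that moved by at least 0.1, or counts by over 1.5 times, follow. Rescaling to TPM gave medians of 0.21 for members, 0.12 for the small and 0.21 for the large subunit, 0.22 for bacterial-family and 0.076 for mitochondria-specific members, 0.60 for cytosolic ribosomal and 0.44 for oxidative phosphorylation genes. It left 6 members past 1.5-fold higher (5.13% of all genes) and 1 past 2-fold lower (11.3%). Centring on the median ratio gave 0.56, 0.48, 0.57, 0.58, 0.44, 0.96 and 0.81 in the same order. It put 31 members past 1.5-fold higher (13.3% of all genes), 4 past 2-fold higher (3.83%) and 1 past 1.5-fold lower (12.5%). Removing the transcript-length trend gave 0.16, 0.16, 0.13, 0.089, 0.16, 0.35 and 0.17, and turned 2 of the 17 members past 1.5-fold higher, Mrpl33 to -0.071 and Mrpl52 to -0.012, among 14 that had been above 0 under the 3 scalings. Removing the coding-length trend gave 0.21, 0.17, 0.23, 0.24, 0.17, 0.54 and 0.30, with 7 members past 1.5-fold higher (6.41% of all genes). Both length settings are void for oxidative phosphorylation genes, of which 60 of 78 had a length. A pseudocount of 5 left 0 members at least 1.5-fold lower. A pseudocount of 0.1, no filter, a mean of at least 5 FPKM, summing rows that share a symbol and adding the lower-case symbols moved none of these medians or counts that far. The cause of these shifts was not tested. Depth is unknown, so no counting error can be given. No paired analysis was possible because each group has 1 library.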

Other observations

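Genes of the mitochondrial protein import machinery, through which the ribosomal proteins reach the organelle, were looked at after the values above had been seen. Of 22 measured genes with Timm or Tomm symbols, 16 had a log2 ratio above 0, against 35.9% of all genes compared. Their median was 0.44 (0.23 after rescaling to TPM, 0.36 with the transcript-length and 0.20 with the coding-length trend removed), beside -0.18 for all genes compared. Of the small subunits of the outer-membrane pore, Tomm6 had 268 against 513 FPKM, Tomm7 had 83.99 against 162 FPKM and Tomm5 had 32.5 against 41.7 FPKM. With the transcript-length trend removed, Tomm6 and Tomm7 stayed above 0 and Tomm5 stood at -0.20. The receptor Tomm20 had 217 against 323 FPKM. Of the small chaperones of the intermembrane space, Timm8b had 67.4 against 131 FPKM and Timm13 had 77.99 against 129 FPKM. Timm17b, of the inner-membrane channel, had 22.6 against 47.7 FPKM and was the 1 gene at least 2-fold higher (2.19% of all genes). The receptor Tomm70, with 22.1 against 8.73 FPKM, was the 1 gene at least 2-fold lower (5.93% of all genes). No mouse transcript length was matched to it. Timm44, with 23.3 against 18.8 FPKM, and Timm21, with 13.6 against 11.2 FPKM, were also below 0. So were Timm29 (17.04 against 13.9 FPKM), Tomm34 (17.2 against 15.5 FPKM) and Tomm40l (2.37 against 1.61 FPKM). These genes describe the same 2 libraries and have no test.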
